A study of Mus musculus with 16 samples.

Results

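Cardiac homeobox and Mef2 transcription factors were followed through the differentiation of P19CL6 cells. The 10 genes were the homeobox genes Nkx2-5, Isl1, Shox2, Irx3, Irx4 and Irx5 and the 4 Mef2 genes, Mef2a, Mef2b, Mef2c and Mef2d, and all 10 were found by symbol among 18193 genes named by a probe set that carried a single gene symbol. A gene with several such probe sets was represented by the brightest, judged by its mean on the 16 arrays. P19CL6 is a clonal mouse embryonal carcinoma line that turns into beating cardiac muscle when dimethyl sulfoxide (DMSO) is added. Cells were taken after 4, 6, 8, 10 or 12 days in medium with 1% DMSO, changed every 48 h, or from growth cultures without DMSO that were passaged every 48 h. RNA was hybridised to 16 Affymetrix arrays: 3 each for days 4, 8 and 10 and for growth, and 2 each for days 6 and 12. Growth cultures were never held for such times, so the effects of DMSO and of time without passage cannot be told apart. Per the labels the samples of a group were independent, and nothing further says how the cultures were separated, so p-values measure the spread between these samples.

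Homeobox proteins bind DNA through a homeodomain. Nkx2-5 acts early in cardiac muscle formation with GATA and T-box factors, and Isl1, a LIM-homeodomain factor, marks cardiac progenitors that add cells to the growing heart and later the sinus node. Shox2 is needed for the sinus node, the pacemaker of the heart, where it restrains Nkx2-5. Of the Iroquois factors, Irx4 is known from ventricular muscle, while Irx3 and Irx5 act in ventricular conduction and repolarisation. Mef2 proteins are MADS-box factors that bind AT-rich sites in muscle genes. Class II histone deacetylases hold them inactive, and kinases and calcineurin release them.

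All levels are log2 signals as deposited, on a scale where 1 unit is a doubling, and a level is compared only within its own probe set. A group is called dim when all its arrays lie under log2 4, a chosen cutoff, and a fold against a group with arrays under the cutoff is a lower bound that counts those arrays at 4. A difference is called changed at a limma adjusted p under 0.05 over 10802 genes together with at least 1 log2. Of the 10 genes, 8 passed the filter of more than log2 4 on at least 2 arrays. Irx4 and Irx5 did not and were not tested. Nkx2-5 and Shox2 passed only through days 10 and 12, the groups in which they are high, so their tests against growth are also given over all 18193 genes with no filter. Isl1, Irx3 and Mef2c were dim in growth and passed only through DMSO arrays, and their tests are given over the 10802 genes alone.

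Across all arrays, 39.6 to 42.5% of probe sets lay above the cutoff, array medians were 3.16 to 3.27, and the number of arrays limits the precision of each value. Replicate A of day 8 resembled day 6 more than its own group: its correlation was 0.990 to 0.992 with day 6 and only 0.956 to 0.967 with the other day 8 arrays. Where it moved a day 8 result of the 10 genes, the value without it is given. The 18S rRNA control probe sets averaged 8.37 ± 0.46 log2 on day 12 (SD, n = 2) and 5.24 ± 0.38 in growth (SD, n = 3), and poly-A spike controls averaged 5.71 ± 0.53 on day 12 and 4.53 ± 0.46 in growth. Their part in the day 12 values below was not tested. The labelled states were checked by markers. All 10 cardiomyocyte markers listed were higher on day 12 than in growth, where 22.5% of all tested genes were. All 6 markers of undifferentiated cells, Pou5f1 and Utf1 among them, were lower, against 19.3% of all tested genes. In growth 9 of the 10 cardiomyocyte markers were dim and passed the filter through DMSO arrays, so their count is a description.

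The factors changed at different days. On day 4, set against growth, Isl1, Mef2a and Mef2d were higher and Mef2b was lower, so that 3 of the 10 genes were called higher, against 13.3% of all tested genes, and 1 lower, against 13.6%. The backgrounds are shares of tested genes, whereas only 8 of the 10 were tested. On day 6 the genes called higher were Isl1, Irx3, Mef2a and Mef2c, 4 of 10 against a background of 14%, with Mef2b again lower against 12.9%. The same 4 were higher on day 8, against 16%, and Mef2b lower, against 15%, with the same counts of 4 and 1 without day 8 replicate A. On days 10 and 12 Nkx2-5, Shox2 and Mef2d were called higher too, which made 7 of 10 called higher against backgrounds of 18.5% and 22.5%, with Mef2b the 1 gene called lower against 19.5% and 19.3%. Nkx2-5 and Shox2 entered the test only through the late arrays. Isl1, Irx3 and Mef2c were dim in growth and entered only through DMSO arrays, so the counts of genes called higher are a description. These 5 comparisons share the 3 growth arrays. Between successive days, Isl1, Irx3 and Mef2c were higher and none was lower on day 6 than on day 4 (3.52% and 2.61% of tested genes), and none of the 10 was called on day 8 against day 6 (0% of genes higher and 0.0185% lower). Without day 8 replicate A, Irx3 and Mef2c were called higher on day 8 against day 6, together with 404 genes higher and 209 lower in all, where the full set of arrays gave 0 and 2. Nkx2-5 and Shox2 were higher (4.62%) and Irx3 lower (3.19%) on day 10 than on day 8, and Shox2 was higher, with none lower, on day 12 than on day 10 (2.88% and 0.185%). These levels are plotted for every array.

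**Figure D1:**
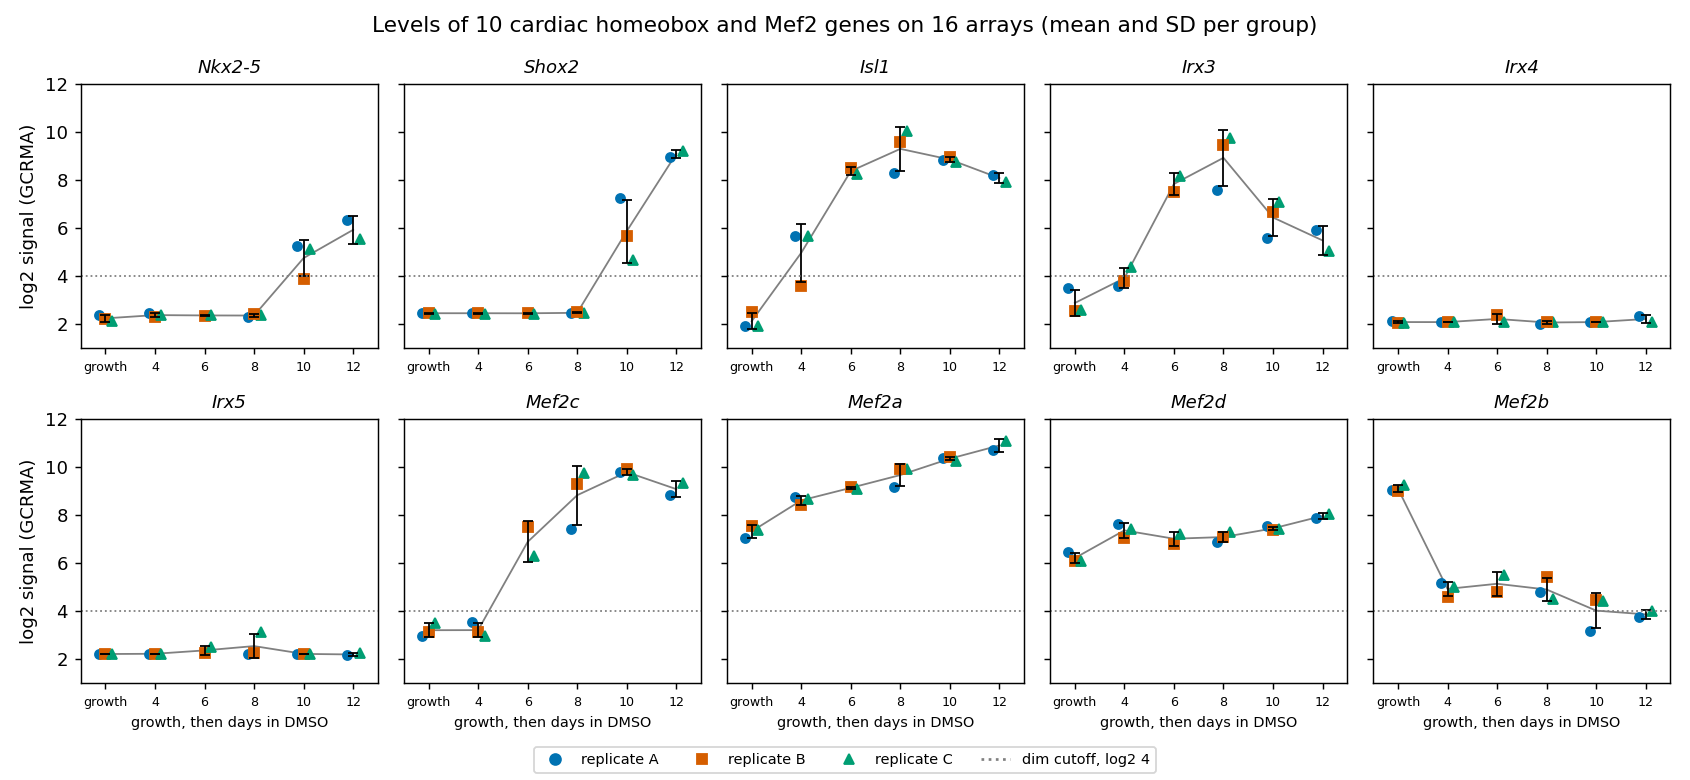
Log2 signal of each of the 10 genes on every array (symbols, replicates A, B and C) with the group mean (line) and SD (bars), by growth and days in DMSO; the dotted line is the dim cutoff of log2 4. Nkx2-5 and Shox2 stay under the cutoff through day 8, Isl1, Irx3 and Mef2c climb by day 6, Mef2b is high only in growth, and Irx4 and Irx5 stay under the cutoff on all 16 arrays.

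Nkx2-5 and Shox2 were dim until day 8 and first called on day 10. Their promoter windows, the 250 bases before the RefSeq start site on GRCm38.p6, are shown because both genes were first called on the same day. The Nkx2-5 window is on the minus strand at chr17:26841566-26841815 and that of Shox2 on the minus strand at chr3:66981772-66982021. Capitals mark an E-box, CANNTG, at bases -113 to -108 from the start of Nkx2-5 and a TATAAA at bases -203 to -198 from that of Shox2.
Nkx2-5: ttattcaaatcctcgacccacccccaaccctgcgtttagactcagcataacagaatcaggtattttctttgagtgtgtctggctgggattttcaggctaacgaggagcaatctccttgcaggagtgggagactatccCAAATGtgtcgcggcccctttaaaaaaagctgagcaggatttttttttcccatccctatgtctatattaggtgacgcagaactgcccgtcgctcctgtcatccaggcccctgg
Shox2: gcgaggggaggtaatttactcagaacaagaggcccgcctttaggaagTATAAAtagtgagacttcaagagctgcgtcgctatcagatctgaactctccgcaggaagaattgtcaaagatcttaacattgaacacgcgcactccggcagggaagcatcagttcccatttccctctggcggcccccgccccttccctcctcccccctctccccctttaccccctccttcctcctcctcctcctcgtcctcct
Both strands were searched for the NKX2-5 element, TNAAGTG, for the GATA factor site, GATAA, for the TATA box, TATAAA, for the E-box, CANNTG, and for the MEF2 site and the CArG box, motifs that may overlap one another. Among 32851 promoter windows of the same length, 66.2% held an E-box and 12.4% a TATA box. Neither window held the NKX2-5 element (10.1% of windows), the MEF2 site (2.92%), the CArG box (1.47%) or the GATA site (22.6%).

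Nkx2-5 (probe set 1449566_at) read 2.40, 2.21 and 2.13 log2 in growth, 2.46, 2.30 and 2.40 on day 4, 2.35 and 2.38 on day 6, 2.30, 2.38 and 2.42 on day 8, 5.25, 3.89 and 5.12 on day 10, and 6.33 and 5.52 on day 12. Every array through day 8 was dim, and the arrays of days 10 and 12 lay above all of them. On day 10 the level averaged 4.75 ± 0.75 (SD, n = 3), against 2.25 ± 0.14 in growth (SD, n = 3). That is a difference of 2.51 ± 0.29 log2 (SE), at least 1.69-fold higher (limma adjusted p = 7.03e-06, or 5.69e-05 with no filter). Since growth was dim, the fold is a bound and the log2 difference is that of the deposited values. On day 12 the difference from growth was 3.68 ± 0.33 log2, at least 3.80-fold (limma adjusted p = 6.56e-07, or 8.39e-06 with no filter). Day 12 and day 10 did not overlap, but the 1.17 log2 between them missed the threshold (limma adjusted p = 0.0681, 95% interval 0.47 to 1.88). When values under 4 were set to 4, the day 10 difference fell under 1 log2 (0.79, limma adjusted p = 0.0227), and the call for day 10 was lost. In a bulk culture, fewer cells with a transcript and less transcript per cell cannot be told apart.

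Shox2 (1438042_at) lay between 2.44 and 2.50 log2 on all 11 arrays of growth and days 4, 6 and 8. On day 10 it read 7.27, 5.68 and 4.67, and on day 12 it read 8.97 and 9.20. The groups did not overlap: each day 12 array was above each day 10 array, and each of those above the earlier ones. The day 10 level averaged 5.87 ± 1.31 (SD, n = 3), the widest spread of any group of this gene, and was at least 3.66-fold above growth (3.41 ± 0.43 log2, limma adjusted p = 1.29e-05, or 1.23e-04 with no filter). Day 12 averaged 9.09 ± 0.16 (SD, n = 2), at least 34.0-fold above growth (6.63 ± 0.48 log2, limma adjusted p = 9.59e-08, or 2.52e-06 with no filter). It was also 9.29-fold above day 10 (3.22 ± 0.48 log2, limma adjusted p = 0.00127). That last call was lost when only days 10 and 12 were fitted (limma adjusted p = 0.128). A second Shox2 probe set, 1420559_a_at, did not pass the filter: it lay between 2.82 and 2.93 through day 10 and at 3.51 and 5.16 on the day 12 arrays.

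Isl1 was called higher than growth from day 4, a call that was lost with values under 4 set to 4, and Irx3 from day 6, and their windows are shown as those of the homeobox genes called before day 8. The Isl1 window is on the minus strand at chr13:116309689-116309938 and the Irx3 window on the minus strand at chr8:91801655-91801904. In the Isl1 window capitals mark GATAA at bases -114 to -110 and an E-box at -103 to -98, and no motif searched was found in that of Irx3.
Isl1: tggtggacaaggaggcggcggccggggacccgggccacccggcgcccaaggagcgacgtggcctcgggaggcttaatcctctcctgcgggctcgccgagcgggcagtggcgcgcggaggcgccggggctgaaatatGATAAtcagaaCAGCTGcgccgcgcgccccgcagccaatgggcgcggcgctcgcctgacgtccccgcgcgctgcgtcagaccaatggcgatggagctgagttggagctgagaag
Irx3: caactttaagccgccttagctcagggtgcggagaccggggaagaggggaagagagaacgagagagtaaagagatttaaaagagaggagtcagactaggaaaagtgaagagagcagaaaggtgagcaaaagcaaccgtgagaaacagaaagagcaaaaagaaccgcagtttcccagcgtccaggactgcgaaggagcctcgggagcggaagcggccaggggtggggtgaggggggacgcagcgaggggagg
The windows differ in base composition, with 71.2% G and C for Isl1 and 56% for Irx3.

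Isl1 (1450723_at) read 1.95, 2.50 and 1.95 log2 in growth, 5.67, 3.59 and 5.65 on day 4, 8.50 and 8.24 on day 6, 8.28, 10.02 and 9.57 on day 8, 8.85, 8.95 and 8.74 on day 10, and 8.21 and 7.93 on day 12. All DMSO arrays lay above all growth arrays, and day 4 replicate B, at 3.59, was the 1 DMSO array under the cutoff. Day 4 averaged 4.97 ± 1.19 (SD, n = 3) and growth 2.13 ± 0.32 (SD, n = 3), at least 1.96-fold higher (2.84 ± 0.50 log2, limma adjusted p = 3.61e-04). With values under 4 set to 4 the difference was 1.11 log2 and not called (limma adjusted p = 0.0515). The second Isl1 probe set, 1422720_at, differed by 1.05 log2 on day 4 and was not called (limma adjusted p = 0.0969). Day 6 exceeded day 4 by 3.40 ± 0.55 log2, at least 9.58-fold (limma adjusted p = 0.00160), and the call was lost when only these days were fitted (limma adjusted p = 0.0685). The highest mean was that of day 8, 9.29 ± 0.90, at least 39.1-fold above growth (7.16 ± 0.50 log2, limma adjusted p = 7.66e-08). Without day 8 replicate A the difference was 7.66 log2. Days 6, 8, 10 and 12 followed in the order 8, 10, 6 and 12, and no neighbours in that order were called different (limma adjusted p = 0.559 to 0.749).

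Irx3 (1418517_at) had its highest level on day 8 and was lower after it. It read 3.50, 2.57 and 2.59 log2 in growth, 3.57, 3.81 and 4.37 on day 4, 7.51 and 8.15 on day 6, 7.58, 9.75 and 9.43 on day 8, 5.59, 6.65 and 7.07 on day 10, and 5.92 and 5.05 on day 12. The arrays of days 6 and 8 were above those of every other group, and days 10 and 12 lay between them and day 4. Day 4 was not called (1.03 log2, 95% interval -0.10 to 2.17, limma adjusted p = 0.124). Without day 8 replicate A it was (limma adjusted p = 0.0436). Day 6 was at least 13.1-fold above day 4, of which 2 of 3 arrays lay under the cutoff (3.91 ± 0.59 log2, limma adjusted p = 9.05e-04). Day 8 averaged 8.92 ± 1.17 (SD, n = 3) and growth 2.89 ± 0.53 (SD, n = 3), at least 30.2-fold higher (6.03 ± 0.53 log2, limma adjusted p = 7.40e-07). Without day 8 replicate A this difference was 6.70 log2 (limma adjusted p = 9.02e-08). Day 10 was 5.58-fold lower than day 8 (-2.48 ± 0.53 log2, limma adjusted p = 0.00751), and without day 8 replicate A the difference was -3.15 log2 (limma adjusted p = 7.69e-04). Fitted on days 8 and 10 alone, the fall was not called (limma adjusted p = 0.0862). Day 12 still exceeded growth by at least 2.80-fold (2.60 ± 0.59 log2, limma adjusted p = 0.00171).

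Irx4 and Irx5 stayed dim throughout. Irx4 (1419539_at) lay between 2.01 and 2.37 log2 on the 16 arrays, and Irx5 (1421072_at) between 2.16 and 3.15, its highest value being on day 8 replicate C. Irx5 is the protein-coding neighbour of Irx3 on chromosome 8, with Irx6 beyond it, and Irx4 lies next to Irx2 on chromosome 13. Irx1, Irx2 and Irx6 did not pass the filter either, so Irx3 was the 1 Iroquois gene of 6 that was measured above the cutoff on 2 or more arrays.

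The 4 Mef2 genes differed in time course. Mef2a and Mef2d were above the cutoff in every sample, Mef2c began dim, and Mef2b was high only in growth.

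Mef2c (1424852_at), needed for looping of the heart and for the right ventricle in mice, read 2.96, 3.16 and 3.52 log2 in growth, 3.53, 3.13 and 2.98 on day 4, 7.48 and 6.28 on day 6, 7.42, 9.75 and 9.29 on day 8, 9.79, 9.91 and 9.64 on day 10, and 8.84 and 9.31 on day 12. Growth and day 4 overlapped and were dim, and every array from day 6 on was above them. Day 6 averaged 6.88 ± 0.85 (SD, n = 2) and growth 3.21 ± 0.29 (SD, n = 3), at least 7.36-fold higher (3.67 ± 0.52 log2, limma adjusted p = 8.70e-05). Day 10 had the highest mean, 9.78 ± 0.13, at least 54.9-fold above growth (6.57 ± 0.47 log2, limma adjusted p = 8.43e-08). Day 8 against day 6 gave 1.94 log2 and was not called (limma adjusted p = 0.255). Without day 8 replicate A it was called (2.64 log2, limma adjusted p = 4.82e-04). All 5 Mef2c probe sets were higher on days 8, 10 and 12 than in growth. The step at day 6 against day 4 was called in 2 of the 5.

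Mef2a (1427185_at), a broadly expressed member, read 7.02, 7.54 and 7.39 log2 in growth, 8.76, 8.40 and 8.65 on day 4, 9.17 and 9.09 on day 6, 9.14, 9.92 and 9.91 on day 8, 10.36, 10.40 and 10.26 on day 10, and 10.70 and 11.08 on day 12. The group means followed the days, and growth overlapped with no DMSO group. Day 4 was 2.44-fold higher than growth (1.29 ± 0.21 log2, limma adjusted p = 2.36e-04) and day 12 was 11.9-fold higher (3.57 ± 0.24 log2, limma adjusted p = 4.79e-08). No step between successive days was called, the nearest being day 10 against day 8 (0.68 ± 0.21 log2, limma adjusted p = 0.0454). Of the 6 Mef2a probe sets 5 passed the filter, and 4 of those were called higher on days 8, 10 and 12. On day 4 only 3 of them were: 1421252_a_at gave 0.48 log2 (limma adjusted p = 0.282), and the mean of the probe sets gave 0.74 log2 and no call. The fifth, 1425426_a_at, lay under the cutoff on all but 2 arrays and was not called on any day.

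Mef2d (1434487_at) read 6.45, 6.09 and 6.09 log2 in growth, 7.62, 7.03 and 7.43 on day 4, 6.81 and 7.22 on day 6, 6.88, 7.31 and 7.07 on day 8, 7.53, 7.38 and 7.41 on day 10, and 7.88 and 8.04 on day 12. All DMSO arrays lay above all growth arrays. Day 12 was 3.37-fold higher than growth (1.75 ± 0.21 log2, limma adjusted p = 8.02e-06), and days 6 and 8 passed the adjusted p but stayed under 1 log2 (0.80 and 0.87). Its probe sets disagreed. The second, 1437300_at, had nearly the same mean over all arrays (7.137, against 7.139) and differed from growth by 0.04 to 0.45 log2, with no day called. The remaining probe set, 1421388_at, was dim. The Mef2d result thus holds for 1 of its 2 measured probe sets, as the plot of all probe sets shows.

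**Figure D2:**
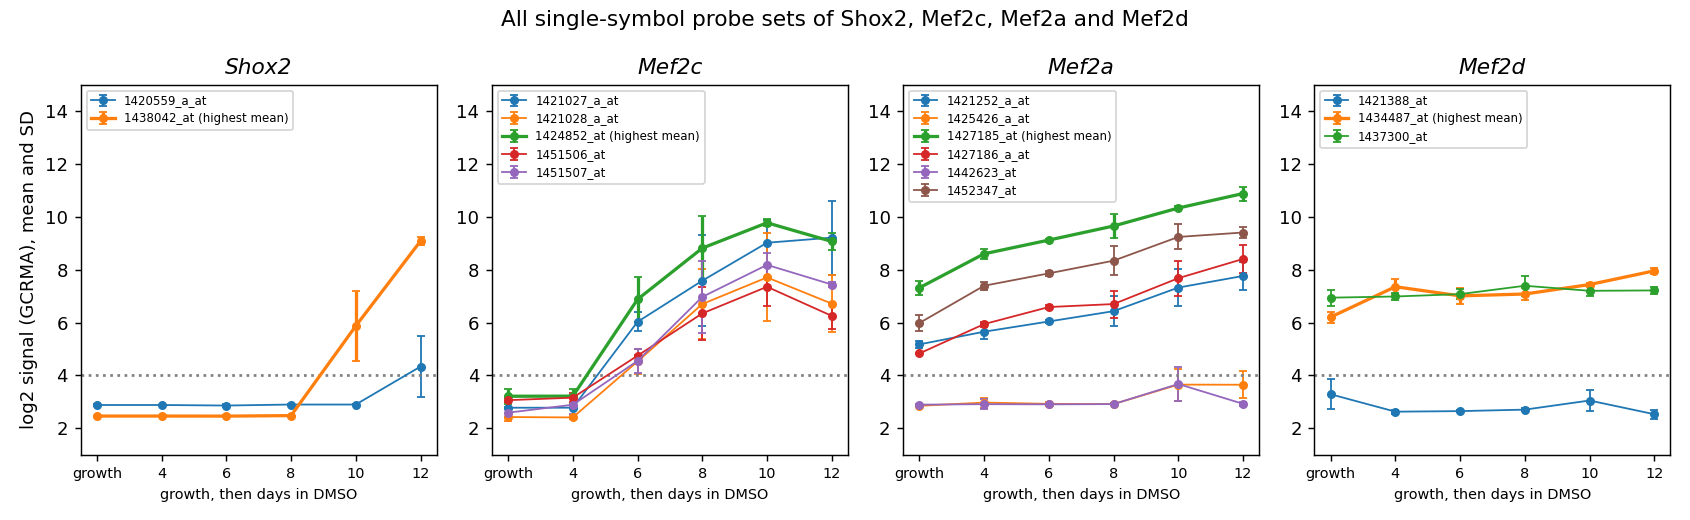
Group mean and SD of log2 signal for every single-symbol probe set of Shox2, Mef2c, Mef2a and Mef2d, by growth and days in DMSO, with the probe set of highest mean drawn thicker and the dim cutoff dotted. All 5 Mef2c probe sets are higher on days 8, 10 and 12 than in growth, and 1421027_a_at alone has its highest mean on day 12. For Mef2d only 1 of 2 probe sets above the cutoff is called higher on day 12 than in growth.

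Mef2b was the 1 gene of the 8 tested that was lower in DMSO. Its promoter window, shown because its direction differed from that of the others, is on the plus strand at chr8:70152511-70152760, with an E-box in capitals at bases -28 to -23.
Mef2b: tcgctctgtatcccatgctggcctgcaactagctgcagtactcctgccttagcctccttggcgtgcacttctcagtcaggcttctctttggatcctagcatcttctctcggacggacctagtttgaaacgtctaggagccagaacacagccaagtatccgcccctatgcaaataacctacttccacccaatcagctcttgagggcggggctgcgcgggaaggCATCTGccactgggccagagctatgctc
Mef2b (1421541_a_at) read 9.03, 8.98 and 9.27 log2 in growth, 5.17, 4.61 and 5.01 on day 4, 4.79 and 5.49 on day 6, 4.78, 4.49 and 5.43 on day 8, 3.18, 4.45 and 4.44 on day 10, and 3.75 and 3.99 on day 12. All 13 DMSO arrays lay at least 3 log2 under the lowest growth array. Day 4 averaged 4.93 ± 0.29 (SD, n = 3) and growth 9.09 ± 0.15 (SD, n = 3), 17.9-fold lower (-4.16 ± 0.33 log2, limma adjusted p = 3.91e-07). Day 12 was dim and at least 34.1-fold lower than growth (-5.22 ± 0.37 log2, limma adjusted p = 8.88e-08). After day 4 no step between successive days was called (limma adjusted p = 0.0911 to 0.9002). A probe set named for both Borcs8, the neighbouring gene, and Mef2b was not tested, since it names 2 genes. It lay between 7.77 and 9.06 on all arrays, at 8.49 and 7.77 on day 12 and at 9.06, 8.87 and 8.92 in growth.

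**Figure D3:**
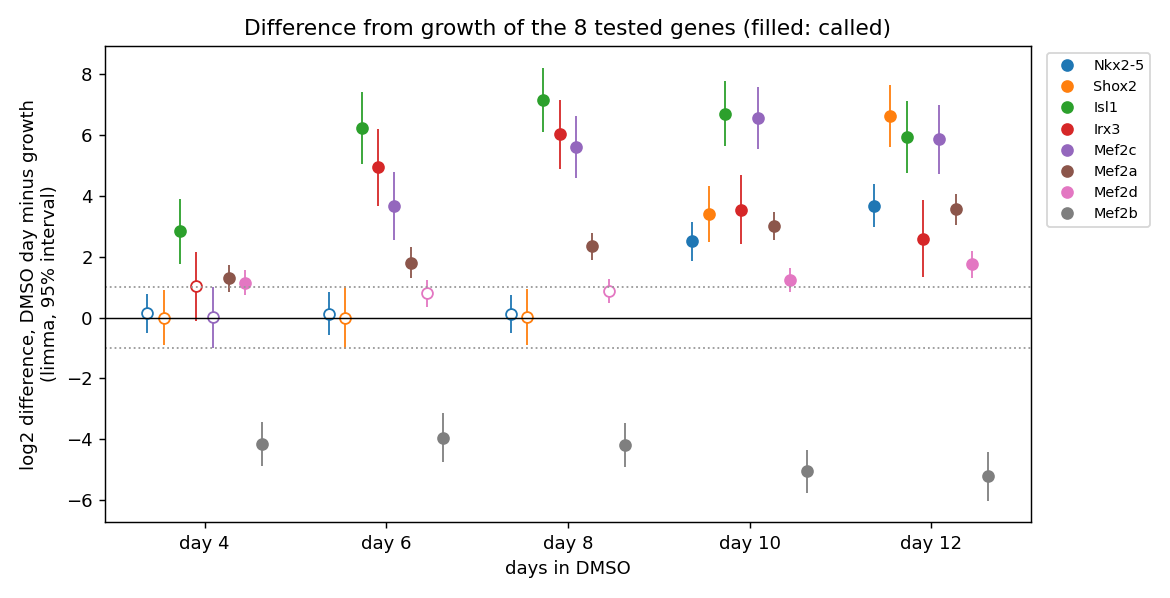
Log2 difference from growth (y axis) with its limma 95% interval for the 8 tested genes at each DMSO day (x axis); filled symbols are called, open symbols are not, and the dotted lines mark 1 log2 either way. Mef2b is the 1 gene below 0 that is called, at -3.95 to -5.22 log2, and Nkx2-5 and Shox2 become called on day 10.

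Unequal change within a family was tested on the log2 difference between 2 genes on each array. Its zero has no meaning, because probe sets differ in brightness. A constant difference in brightness cancels in its change between groups, but a difference in response between probe sets does not. The Mef2d probe sets 1434487_at and 1437300_at differed from growth on day 12 by 1.75 and 0.27 log2. The tests therefore compare the chosen probe sets. Arrays of days 10 and 12 (n = 5) were set against those of growth (n = 3) and of days 4 and 6 (n = 5) by two-sided exact permutation tests of 11 pairs, 22 tests with Benjamini-Hochberg adjustment. The smallest p these designs allow are 0.0179 and 0.00794. All 6 Mef2 pairs passed against both (adjusted exact permutation p = 0.0281 to 0.0349). Mef2b minus Mef2c averaged -5.53 ± 0.61 log2 on days 10 and 12 and 5.88 ± 0.17 in growth, but Mef2c was dim in growth and Mef2b lay under the cutoff on 3 of the 5 late arrays. With values under 4 set to 4, the change of -11.4 log2 in this pair became -10.4, and all 6 Mef2 pairs still passed both tests. Mef2c minus Mef2d averaged 1.85 ± 0.69 on days 10 and 12 and -2.997 ± 0.467 in growth, and Mef2a minus Mef2d averaged 2.91 ± 0.11 and 1.11 ± 0.47 in the same groups. In these the arrays of the groups did not overlap. The pairs with Mef2d rest on the probe set 1434487_at.

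Among the homeobox genes, Irx3 minus Irx4, Irx3 minus Irx5 and Isl1 minus Nkx2-5 passed between days 10 and 12 and growth (adjusted exact permutation p = 0.0281). Irx4 and Irx5 were dim on every array, and Isl1 and Nkx2-5 were both dim in growth, so these values are not read as unequal change within a family. Isl1 minus Shox2 did not pass (adjusted exact permutation p = 0.388): it ranged from -1.27 to 4.08 log2 on days 10 and 12 and from -0.53 to 0.04 in growth. No homeobox pair passed for days 10 and 12 against days 4 and 6 (adjusted exact permutation p = 0.196 to 0.607). Leaving out any 1 growth array reduced the number of pairs called against growth from 9 to 0, because the smallest p that 2 growth arrays allow cannot pass after adjustment.

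**Figure D4:**
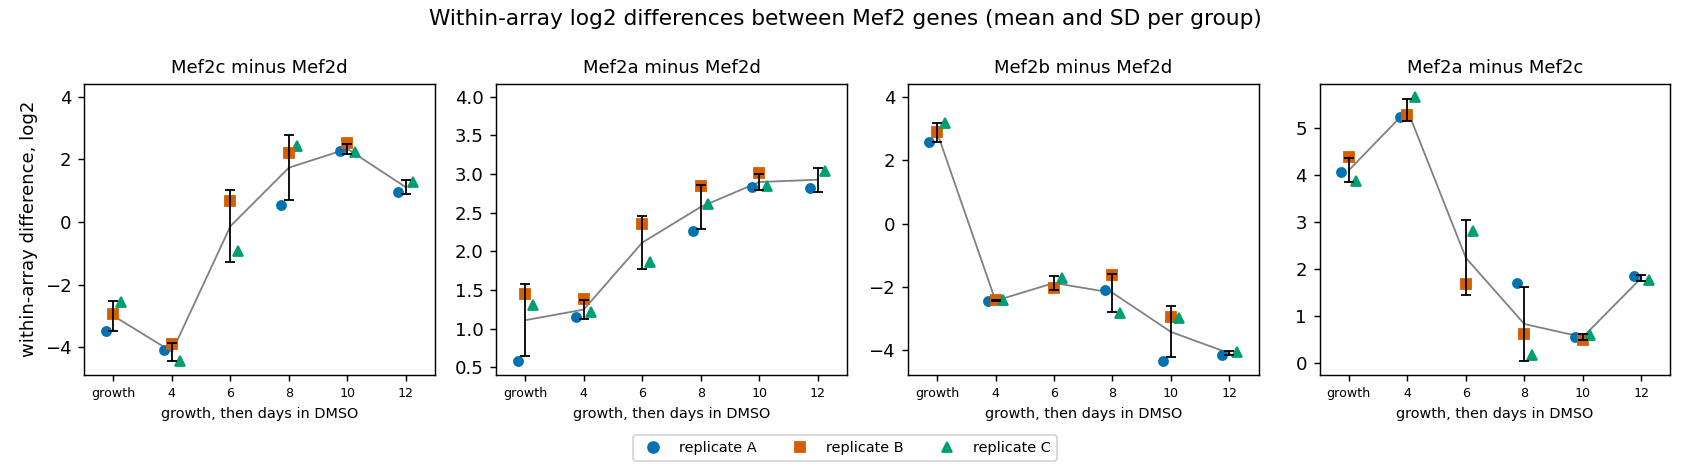
Within-array log2 difference between 2 Mef2 genes (y axis, each panel on its own scale) on every array by growth and days in DMSO, with group mean (line) and SD (bars). Mef2b minus Mef2d is above 2.5 in growth and below -1.5 on every DMSO array, and Mef2c minus Mef2d is higher on every array of days 6 to 12 than on any array of growth or day 4; the zero of each axis has no meaning.

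The level patterns across the 16 arrays placed Nkx2-5 nearest to Shox2 among the tested factors (Pearson r = 0.953). Isl1 was nearest to Mef2c (r = 0.896), Irx3 (r = 0.878) and Mef2a (r = 0.874). Among these factors Mef2c was itself nearest to Mef2a (r = 0.898). For Irx3 and Nkx2-5 r was 0.0641. The arrays are grouped by day, so these values describe the shared time course and carry no test. Over all 10802 genes the 3 patterns most like Nkx2-5 were Rrad (r = 0.989), Cdo1 (r = 0.989) and Ehd2 (r = 0.987). For Shox2 they were Ampd3 (r = 0.996), Enpep (r = 0.995) and Asb2 (r = 0.993). For Isl1 they were Capn6 (r = 0.985), Ccdc80 (r = 0.982) and Bmp5 (r = 0.980), a bone morphogenetic protein, and for Irx3 they were Svep1 (r = 0.943), Adamts9 (r = 0.939) and Nabp1 (r = 0.931). Mef2c was most like Tgfb2 (r = 0.986), a TGF-beta ligand, Igfbp5 (r = 0.984) and Hcfc2 (r = 0.982), and Mef2a like Pja2 (r = 0.992), Dctn6 (r = 0.988) and Lcor (r = 0.986). Mef2d was most like Fosl2 (r = 0.954), Tradd (r = 0.943) and Gata4 (r = 0.927), and Mef2b like Tmem130 (r = 0.973), Slc39a14 (r = 0.972) and Phc1 (r = 0.970), a Polycomb component.

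Factors that act with the homeobox and Mef2 proteins in the heart were called on day 12 against growth in 18 of the 20 tested, with 17 higher and 1 lower, where 22.5% of all tested genes were higher and 19.3% lower, and their median difference was 3.68 log2, against 0.00 over all genes. In growth 13 of the 20 were dim and passed the filter through DMSO arrays, so the counts and the median are a description. Hand2, a helix-loop-helix factor of the right ventricle, averaged 11.94 on day 12 and 3.18 in growth (at least 246-fold higher, limma adjusted p = 2.61e-06). Tbx20, a T-box factor, was at least 140-fold higher (limma adjusted p = 1.27e-09), and Smarcd3, a chromatin remodelling subunit that aids GATA4 and T-box factors, was at least 96.8-fold higher (limma adjusted p = 4.39e-08). Gata6 was at least 142-fold higher (limma adjusted p = 9.62e-10). Tbx1 was lower, at least 1.70-fold (limma adjusted p = 1.11e-06). On day 4, before Nkx2-5 passed the cutoff, 9 of the 20 were already higher, against 13.3% of all genes, and Tbx1 lower.

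Genes known as targets of Nkx2-5 or Mef2 were called mostly from day 8. None of the 10 tested was called on day 4, 1 on day 6 (Ankrd1), 5 on day 8 (7 without day 8 replicate A) and 10 on days 10 and 12, where the shares of all genes higher on days 4 to 12 were 13.3, 14, 16, 18.5 and 22.5%. Most of these 10 were dim in growth and passed the filter through later days, and 4 of the 14 listed did not pass, so the counts are a description. Actc1, cardiac actin, averaged 13.86 on day 12 and 2.59 in growth (at least 927-fold higher, limma adjusted p = 2.37e-08), and Myh6, the alpha myosin heavy chain, was at least 850-fold higher (limma adjusted p = 7.70e-08). Tnni3, cardiac troponin I, was at least 115-fold higher (limma adjusted p = 1.04e-10), and Csrp3, a muscle LIM protein, at least 98.8-fold (limma adjusted p = 6.23e-05). The 4 that did not pass were Nppa, Nppb, Gja5 and Tcap.

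Of 13 tested regulators of Mef2 activity, 5 were higher and 1 lower on day 12, where 22.5% and 19.3% of all genes were, and the median difference was 0.33 log2. In growth 2 of the 13, Hdac9 and Vgll4, were dim and passed the filter through DMSO arrays, so the count of genes higher is a description. Hdac9, a class II histone deacetylase that binds Mef2, averaged 7.05 on day 12 and 2.69 in growth (at least 8.29-fold higher, limma adjusted p = 4.22e-05). Prkd1, a kinase that drives such deacetylases out of the nucleus, was already 34.3-fold higher than growth on day 4 (limma adjusted p = 1.53e-09) and 11.2-fold on day 12 (limma adjusted p = 1.37e-07). Ppp3ca, a calcineurin catalytic subunit, was 11.7-fold higher on day 12 (limma adjusted p = 4.60e-08), while Ppp3cb, another, differed by 0.41 log2 and was not called (limma adjusted p = 0.187), and Camk2d, a calmodulin-dependent kinase, was 2.25-fold higher (limma adjusted p = 0.0100). These values are levels of RNA and say nothing of Mef2 activity.

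Genes linked with Shox2 in the sinus node were higher on day 12 in 6 of 7 tested, Isl1 among them, and 1 was lower, against 22.5% and 19.3% of all genes. Of the 10 listed, 8 were on the array and Hcn2, a pacemaker channel, did not pass the filter. In growth 5 of the 8 were dim, Isl1, Tbx3 and Tbx18 among them, so the counts are a description. Bmp4, a ligand placed downstream of Shox2 in the heart, was 49.4-fold higher (limma adjusted p = 2.85e-08) and was already called on day 4, when Shox2 was dim. Tbx18, a factor of the sinus horn, was at least 14.5-fold higher (limma adjusted p = 1.93e-06), and Tbx3, a repressor of working muscle genes, at least 7.17-fold (limma adjusted p = 3.90e-05). Cacna1g, a T-type calcium channel of pacemaker cells, was 11.8-fold lower (limma adjusted p = 9.15e-07). Shox2 is also a limb gene. Of 9 limb mesenchyme markers on the array, 5 were tested and those 5 were higher on day 12, against 22.5% of all genes, among them Prrx2 (at least 6.19-fold, limma adjusted p = 2.73e-05) and Twist1 (at least 4.35-fold, limma adjusted p = 3.19e-05), while Prrx1, Alx1, Alx4 and Lmx1b were dim. All 9 were dim in growth, so the 5 could pass the filter only through DMSO arrays, and their count is a description. The mean log2 level over the 9 was 4.12 and 4.37 on the day 12 arrays and 2.64 to 2.81 on the growth arrays. On day 6, when Shox2 was dim, 4 of the 5 were called higher than growth, against 14% of all genes. Their part in the Shox2 values was not tested.

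Of the second heart field genes, which share the progenitors that Isl1 marks, 4 of 11 tested were higher and 2 lower on day 12, against backgrounds of 22.5% and 19.3%, with a median of 0.28 log2. The genes higher were Hand2, Mef2c, Bmp4 and Wnt11, a non-canonical ligand that was at least 7.96-fold higher (limma adjusted p = 2.21e-05). Those lower were Tbx1 and Eya1. On day 12, 6 of the 13 on the array were dim: Fgf8, Fgf10, Tbx1, Six2, Foxc1 and Foxc2. In growth 7 of the 13 on the array were dim, Hand2 and Mef2c among them, so these counts are a description. Of the other NK2, LIM-homeodomain and Iroquois genes listed, 15 of 17 did not pass the filter. Lhx1 was called higher on day 4 and on no later day, averaging 9.64 on day 4 and 2.73 in growth (at least 49.8-fold, limma adjusted p = 6.11e-07). Lhx2 was at least 2.09-fold higher on day 12 (limma adjusted p = 3.17e-08). All 17 were dim in growth. Lhx1 and Lhx2 passed the filter only through DMSO arrays in which they were high, so their values are a description.

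Isl1 and the Mef2 genes are also used by neurons and skeletal muscle. Of 10 skeletal muscle markers 8 did not pass the filter, Myod1, Myf5 and Myog among them, and the mean log2 level of the list was 2.74 and 2.80 on the day 12 arrays and 2.80 to 2.97 in growth. Of 12 neural markers 9 did not pass, with Sox1, Pax6, Olig2 and Mnx1 dim in all groups. Tubb3 and Nefl were lower and Map2 was higher on day 12 than in growth, and the mean of the list was 3.11 and 3.25 on day 12 and 3.46 to 3.51 in growth. Of 8 endothelial markers 3 did not pass, Tie1, Emcn and Vwf. Among the 5 tested, Kdr, Tek, Pecam1 and Cdh5 were higher on day 12 and Flt1 was lower, against 22.5% and 19.3% of all genes. Cdh5 averaged 3.99 log2 on day 12, under the cutoff. Of these 5, all but Flt1 were dim in growth and passed the filter through DMSO arrays, so the count is a description. The mean of the list of 8 was 4.45 and 4.75 on day 12 and 3.21 to 3.50 in growth. The part of endothelial cells in the Mef2c values was not tested.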

How the data were processed

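RNA of 16 cultures was measured on Affymetrix arrays. Per the submitters' processing notes the deposited values come from GCRMA, which corrects background by probe sequence, normalizes by quantiles and summarizes probe sets; no version or log base is given in the sources used here. The deposited values lay between 0.863 and 15.9 and were read as log2 from that range. Quantile normalization brings the arrays to like distributions. Genes came from the platform annotation: 34945 of 45101 probe sets named 1 symbol, 932 several and 9160 none.

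Probe sets above log2 4 on at least 2 arrays were kept, then the highest mean per gene, which left 10802 genes. A mean per group was fitted with limma 3.58.1 in R 4.3.3 (lmFit, eBayes; 10 residual and 3.53 prior degrees of freedom) and checked on simulated data. Calls needed a Benjamini-Hochberg adjusted p under 0.05 and 1 log2. Exact permutation tests enumerated all arrangements in Python 3.11.15 with numpy 2.4.6. Promoters are from RefSeq; 9 of 10 genes matched.

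Named were all 10 genes, the 3 highest Pearson r for each tested gene, and up to 4 called genes per list with the largest day 12 difference; genes shown outside this rule (Lhx1, the day 4 value of Prkd1 and unlisted names of dim or called genes) were chosen after their values were seen. The genes and lists were chosen with earlier results of these data known.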

Additional observations from a re-analysis of the deposited data

How the results depend on the processing

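Member results numbered 72, 37 of them called, and none reversed under any setting. With 1 array left out, 1147 of 1152 repeats kept their call and 5 gained one. Under the other settings 766 kept it, 7 gained and 10 lost it. In single probe sets, an alternative chosen after seeing the data, 75 kept it and 15 lost it, mostly Mef2a, Mef2d and the day 6 step of Mef2c. With a replicate block the numbers of genes called higher of these 10 were 3, 4, 4, 7 and 7 on days 4, 6, 8, 10 and 12 against growth, as without it. Deviations of same-letter arrays had a median r of 0.06 (35 pairs, -0.21 to 0.32, 13 over 0.1), and those of other arrays -0.03 (71 pairs, 7 over 0.1). The labels do not say what a letter marks and not every pair passed 0.1, so the letters were not used as pairs, and a shared letter effect was not tested further.

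On day 10 against day 8, 1 member was called higher with a filter at log2 6, under which Nkx2-5 was not tested, and 1 with values under 4 set to 4, against 2. Array weights called 3 higher on day 8 against day 6 (Isl1, Irx3 and Mef2c), against 0, 2 lower on day 10 against day 8, against 1, and 2 higher on day 12 against day 10, against 1. Fitting only the 2 groups gave 0 lower on day 10 against day 8 and 0 higher on day 12 against day 10. Averaging probe sets within a gene gave 1 higher on day 4, against 3. The cause was not tested.

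Counts over all genes moved by over 1.5 times mainly between successive days. On day 8 against day 6 they were 0 higher and 2 lower, 491 and 261 with array weights, 404 and 209 without day 8 replicate A, and at most 7 and 15 otherwise. With only the 2 groups fitted, 139 were lower on day 6 against day 4 (282 with all arrays), 218 higher and 150 lower on day 10 against day 8 (499 and 345), and 113 and 8 on day 12 against day 10 (311 and 20). Leaving out day 6 replicate B or C gave 248 or 186 higher on day 6 against day 4 (380), and leaving out these or day 4 replicate C gave 123 to 183 lower. On day 12 against day 10, 129 were higher with a filter at log2 6, 151 without day 12 replicate C, and 4 to 54 lower across settings. Averaged probe sets gave 941 higher on day 4 against growth (1442) and 225 lower on day 10 against day 8. The adjusted p alone gave 2529 higher and 2674 lower on day 4 (1442 and 1472) and 3072 and 3424 on day 10 (2003 and 2104).

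With 1 array left out, the number higher ranged from 0 to 2 on day 8 against day 6 (2 without day 8 replicate A) and from 1 to 2 on day 12 against day 10 (2 without day 10 replicate A, which added Nkx2-5 at 1.42 log2, limma adjusted p = 0.0232). Pairs of genes with unequal change from growth ranged from 0 to 9.

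The cutoff of 4 is a choice, so bounds move with it. With 2 arrays on days 6 and 12, their spread is poorly known.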
